A study of Mus musculus with 9 samples.

Results

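P-selectin (Selp) is an adhesion receptor of platelets and endothelium that also appears on part of the hematopoietic stem cell (HSC) pool as mice age. The comparison described here sets Selp-low pre-aged HSCs (paHSCs) against young HSCs (yHSCs) by bulk RNA-seq, and it uses 6 of the 9 libraries of the series, chosen by their labels: 3 of Selp-low paHSCs and 3 of yHSCs. All cells came from bone marrow of female C57BL/6 mice, aged 6 to 10 weeks for the young group and 14 to 16 months for the pre-aged group. Cells were sorted as SLAM HSCs (lineage-negative, Sca-1+, c-Kit+, CD48-, CD150+), and the pre-aged cells were split by the amount of P-selectin at the surface, so that the Selp-low group is the part of the pre-aged HSC pool with little P-selectin and not a treated or mutant population. The 3 libraries of Selp-high paHSCs are quoted only where their level places a Selp-low value. The question is how far the Selp-low cells of pre-aged mice still resembled young HSCs in their transcriptome.

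HSCs self-renew and supply every blood lineage, and their identity rests on transcription factors such as Hlf, Meis1 and the Hox genes and on cytokine receptors such as Kit. With age the pool expands, shifts toward platelet and myeloid output and loses lymphoid priming, the low-level transcription of lymphoid genes that precedes commitment. Immunoglobulin (IG) and T-cell receptor (TR) genes are assembled and highly transcribed in lymphocytes and plasma cells, so they were kept apart from the protein-coding genes here.

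The count table held 56748 genes, of which 20437 passed the filter on low counts in the 6 libraries: 14998 of 21970 protein-coding genes, 147 of 432 IG genes, 22 of 270 TR genes and 5270 others. Libraries held 24866975 to 35266974 assigned counts in the young group and 27869540 to 34004671 in the Selp-low group. Levels are given below as normalized CPM (counts scaled to library size), which do not correct for gene length, and fold changes as log2 of Selp-low over young from edgeR's quasi-likelihood test. A gene was called when its Benjamini-Hochberg adjusted p was at most 0.05 and its absolute log2 fold change at least 1. The Selp-low libraries differed strongly in composition. In Selp-low replicate 2 the 10 most abundant genes, led by Igkc, Ighm and Jchain, took 44.8% of the counts. In Selp-low replicate 3 they took 20.9%, led by the neutrophil granule and calcium-binding genes Ngp, S100a9 and S100a8, and in young replicate 1 they took 12.5%. Values without these libraries therefore stand beside the results that rest on them. Bulk counts cannot tell fewer cells of a type from less RNA per cell.

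**Figure D1:**
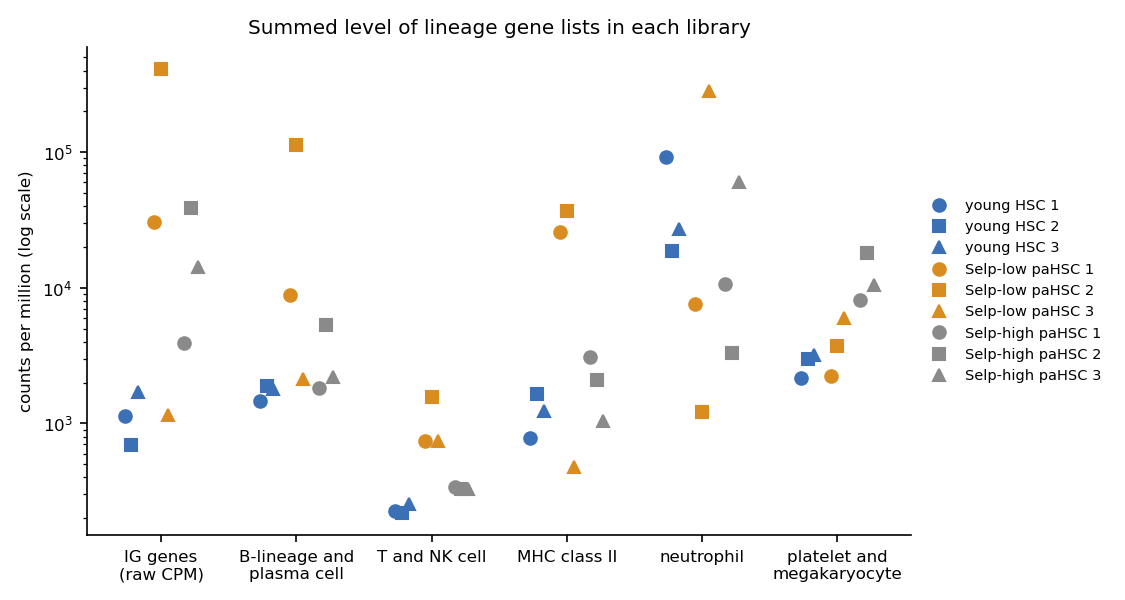
Summed level of lineage gene lists in each library, as CPM on a log axis. IG genes are shown without normalization factors, and the other lists are sums of the tested members' normalized CPM. Selp-low replicates 1 and 2 stand above all young libraries for IG and MHC class II genes and Selp-low replicate 3 for neutrophil genes. All 3 Selp-low libraries stand above the young ones for the summed B-lineage genes, with replicate 3 at 2126 CPM against at most 1873 CPM, and for T and NK cell genes. Few members carry the sums of replicate 3. There, 8 of 30 B-lineage genes were above all young libraries and 13 below, and 3 of 24 T and NK cell genes above and 10 below.

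No gene passed edgeR's quasi-likelihood test with 3 libraries a side (0 of 20437 called, a background of 0%), and the lowest adjusted p of the named genes was 0.332. At an unadjusted p under 0.05, 1453 genes were higher in Selp-low paHSCs (7.11%) and 853 lower (4.17%). DESeq2, run on the same filtered counts, called 571 genes higher (2.79%) and 325 lower (1.59%), and left 5810 genes without an adjusted p. DESeq2 without the filter on low counts called 516 genes. The words higher and lower below therefore describe values, and a DESeq2 call is named as such. In 1960 genes (9.59%) all 3 Selp-low libraries lay above all 3 young libraries, and in 1378 (6.74%) they lay below. The median log2 fold change over all genes tested was 0.08, and 55.1% of genes had a positive value. DESeq2 calls over all genes also moved with each library left out. Young replicates 1, 2 and 3, left out in turn, gave 2018, 183 and 135 higher and 987, 54 and 34 lower calls. Selp-low replicates 1, 2 and 3, left out in turn, gave 571, 105 and 999 higher and 501, 82 and 651 lower calls. Leave-out counts of list members below stand beside these totals.

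Among protein-coding genes, 1504 had Selp-low libraries that were all higher and 1171 that were all lower. DESeq2 called 310 of the former and 283 of the latter. Of the 147 tested IG genes it called 64 higher and 0 lower, beside 2.79% and 1.59% of all genes. It left 45 IG genes without an adjusted p, among them Ighm, Igha and Ighv10-3.

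Genes already known to rise in aged HSCs were higher in Selp-low paHSCs than in yHSCs, at levels that mostly lay between the young and the Selp-high cells. Of 39 tested members, 35 had a positive log2 fold change, the median was 1.52 against 0.08 over all genes, and 20 were higher in every Selp-low library than in every young one, beside 9.59% of all genes. DESeq2 called 20 of the 39, all higher, beside 2.79% of all genes. That count was 11 without young replicate 2, 8 without young replicate 3 and 12 without Selp-low replicate 1, and 16 to 21 without each of the others. In 31 of the 39 genes the Selp-low mean lay between the young and the Selp-high mean.

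Clu encodes clusterin, a secreted chaperone, and lies at chr14:66205932-66218996 (mm39, plus strand). It stood at 14.9, 7.65 and 9.05 CPM in the young libraries and at 53.2, 36.6 and 106 CPM in the Selp-low libraries. Every Selp-low library was above every young one, and all 3 were below the lowest Selp-high library, at 388 CPM. The log2 fold change was 2.64 ± 0.48 (SE, n = 3 and 3, DESeq2 adjusted p = 0.0002034). Ehd3, a membrane-trafficking ATPase, was at 12.5, 15.4 and 16.2 CPM in young and 47.6, 62.9 and 89.9 CPM in Selp-low libraries. All 3 Selp-low libraries were thus above the young ones, with a log2 fold change of 2.22 ± 0.29 (DESeq2 adjusted p = 1.743e-08).

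Cavin2, a coat protein of caveolae, was at 24.6, 8.99 and 14.2 CPM in young and at 86.9, 105 and 178 CPM in Selp-low libraries. Slamf1, which encodes the sort marker CD150, was at 10.9, 15.2 and 19.3 CPM in young and 66.3, 62.6 and 41.0 CPM in Selp-low libraries. Both genes were thus higher in all 3 Selp-low libraries, by a log2 fold change of 2.96 ± 0.48 for Cavin2 (DESeq2 adjusted p = 1.135e-05) and of 1.97 ± 0.32 for Slamf1 (DESeq2 adjusted p = 9.103e-06). Vwf, the platelet adhesion factor, was at 15.7, 25.3 and 17.6 CPM in young and 36.8, 76.2 and 156 CPM in Selp-low libraries. Further members with no overlap between groups were Aldh1a1, a retinaldehyde dehydrogenase (log2 fold change 2.22 ± 0.49), the metallothionein Mt1 (2.87 ± 0.55), the stress-response gene Nupr1 (2.91 ± 0.75), the phospholipid scramblase Plscr2 (3.03 ± 0.70) and the YAP/TAZ cofactor gene Wwtr1 (2.01 ± 0.57).

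Selp itself was at 20.5, 30.0 and 23.2 CPM in the young libraries and at 109, 29.3 and 93.3 CPM in the Selp-low libraries. Selp-low replicate 2 fell within the young range, and all 3 Selp-low libraries were below the Selp-high libraries, which stood at 264 to 652 CPM. The log2 fold change over yHSCs was 1.69 ± 0.48 (DESeq2 adjusted p = 0.02971). Alox12 and Tubb1, platelet genes, overlapped between the groups, with log2 fold changes of 0.51 ± 0.65 and -0.55 ± 1.07, both of which changed sign without single libraries. Neo1, a netrin receptor gene, overlapped as well (0.75 ± 0.43), and the focal adhesion gene Tgfb1i1 was at 1.58 to 3.22 CPM in Selp-low and 0.371 to 1.12 CPM in young libraries.

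**Figure D2:**
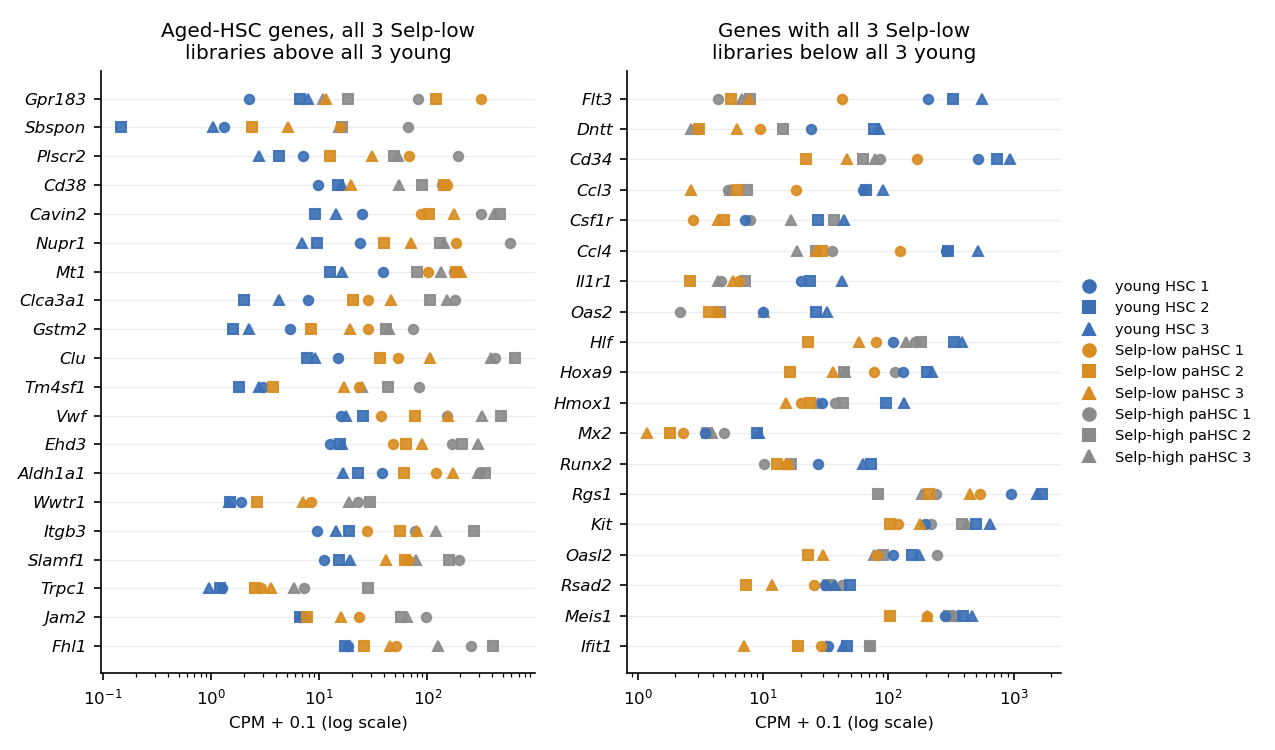
Normalized CPM plus 0.1 on a log axis for each library, for genes in which the Selp-low and young libraries do not overlap. Left, 20 genes known to rise in aged HSCs, in most of which the Selp-low libraries lie between the young and the Selp-high libraries. Right, 19 genes that were lower in every Selp-low library, among them Flt3 and Cd34.

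The genes that were lower in Selp-low paHSCs included receptors and factors of multipotent progenitors. Flt3, the receptor tyrosine kinase of lymphoid-primed progenitors (chr5:147267551-147337299, mm39, minus strand), was at 207, 331 and 563 CPM in the young libraries and at 42.4, 5.40 and 7.68 CPM in the Selp-low libraries. The groups were far apart, with a log2 fold change of -4.23 ± 0.92 (DESeq2 adjusted p = 3.474e-05), and the Selp-high libraries stood at 4.29 to 7.78 CPM. Cd34, a sialomucin that marks short-term HSCs and progenitors, was at 516, 740 and 943 CPM in young and 169, 21.9 and 46.9 CPM in Selp-low libraries, a log2 fold change of -3.15 ± 0.77. Dntt, the terminal transferase of lymphoid progenitors, was at 23.9, 77.0 and 83.7 CPM in young and 9.37, 2.96 and 6.11 CPM in Selp-low libraries.

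Among 30 tested HSC identity and self-renewal factors the median log2 fold change was -0.65, and 20 members were negative. DESeq2 called 4 lower and 0 higher, beside 1.59% and 2.79% of all genes. In 4 members every Selp-low library was below every young one and in 2 above, beside 6.74% and 9.59% of all genes. Hlf, a PAR-family transcription factor of self-renewing HSCs, was at 110, 337 and 389 CPM in young and 79.2, 22.8 and 58.1 CPM in Selp-low libraries. Hoxa9 was at 132, 205 and 224 CPM in young and 76.1, 16.3 and 35.8 CPM in Selp-low libraries. Both were lower in all 3 Selp-low libraries, as were Runx2 (log2 fold change -1.82 ± 0.37) and Meis1 (-1.11 ± 0.34). The DESeq2 count of 4 was 0 without young replicate 2 and 0 without young replicate 3, 6 without Selp-low replicate 1 or 3, and 8 without young replicate 1. Mecom and Procr overlapped between the groups, with log2 fold changes of -1.27 ± 0.51 and -0.89 ± 0.62, as did Gfi1, a repressor that restrains HSC cycling (-0.78 ± 0.58). Gfi1b, a repressor active in megakaryocyte and erythroid development, was instead higher in all 3 Selp-low libraries (0.62 ± 0.28).

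Sort markers were read against the gate. Kit, the c-Kit receptor, was at 196, 499 and 649 CPM in young and 120, 103 and 179 CPM in Selp-low libraries, a log2 fold change of -1.68 ± 0.45. Cd48, whose protein is absent from SLAM HSCs by the gate, was at 15.6, 23.9 and 34.2 CPM in young and at 174, 309 and 22.7 CPM in Selp-low libraries. Selp-low replicates 1 and 2 were thus above all young libraries and replicate 3 within their range. Ly6a, the gene of Sca-1, was at 635 and 879 CPM in Selp-low replicates 1 and 2 and at 69.6 CPM in replicate 3, against 144 to 188 CPM in yHSCs.

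Among early lymphoid genes the members moved apart. Cd52, a lymphocyte surface glycoprotein, was at 142, 56.6 and 78.0 CPM in young and 623, 1582 and 467 CPM in Selp-low libraries, a log2 fold change of 3.32 ± 0.64 (DESeq2 adjusted p = 5.299e-05). Il7r, Tcf7, Ikzf3 and Pax5, which act in committed lymphocytes, were above all young libraries in Selp-low replicates 1 and 2, with Tcf7 at 37.7 and 27.8 CPM, and not in replicate 3, where it stood at 1.95 CPM against 0.339 to 3.41 CPM in yHSCs. Of the 24 tested genes of this list, 17 were above 0 in log2 fold change. DESeq2 called 6 higher and 2 lower, beside 2.79% and 1.59% of all genes. The 6 higher calls were 13 without Selp-low replicate 3, 4 without young replicate 2, 3 without Selp-low replicate 1, 2 without young replicate 3 and 1 when Selp-low replicate 2 was left out.

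The B-lineage, T-cell and MHC class II genes were higher mainly in Selp-low replicates 1 and 2. Of 30 B-lineage and plasma cell genes, 21 were above all young libraries in both of these replicates, and 8 in replicate 3, whose summed level of 2126 CPM was nevertheless above the young range of 1469 to 1873 CPM. The list had a median of 2.87 in log2 fold change. DESeq2 called 14 members higher, beside 2.79% of all genes. That count was 1 without Selp-low replicate 2 and 3 without young replicate 3. It was 6 without young replicate 2 and 22 when Selp-low replicate 3 was left out. Cd79a, the signalling chain of the B-cell receptor, was at 19.4, 85.1 and 59.7 CPM in young, 2494 and 4243 CPM in Selp-low replicates 1 and 2 and 8.73 CPM in replicate 3. Ms4a1, the gene of CD20, was at 558, 666 and 1.76 CPM in Selp-low replicates 1, 2 and 3. Plasma cell genes were high in replicate 2, where Derl3 stood at 342 CPM and Jchain at 98263 CPM, against 3.51 and 247 CPM in replicate 1.

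All 16 tested genes of MHC class II presentation but Cd86 had a positive log2 fold change, with a median of 3.05. DESeq2 called 8 of them higher, beside 2.79% of all genes. It called 14 without Selp-low replicate 3 and 5 when young replicate 3 or Selp-low replicate 2 was left out. Cd74, the invariant chain, was at 171, 654 and 401 CPM in young, 13479 and 24608 CPM in Selp-low replicates 1 and 2 and 138 CPM in replicate 3. H2-Ab1 followed the same order, with 4473, 4903 and 65.5 CPM in Selp-low libraries against 103 to 213 CPM in yHSCs. Cd86 was at 33.0, 26.9 and 2.92 CPM in Selp-low libraries and at 32.3, 27.3 and 32.4 CPM in yHSCs. T-cell receptor complex genes were also high in 2 of the 3 libraries, with Cd3g at 83.7, 226 and 0.824 CPM in Selp-low replicates 1, 2 and 3 against 0.102 to 1.69 CPM in yHSCs. Of 24 T and NK cell genes, DESeq2 called 9 higher with all libraries, beside 2.79% of all genes. It called 15 without Selp-low replicate 3, 5 without young replicate 2, 4 without young replicate 3 and 3 when Selp-low replicate 2 was left out. The part of other cell types in these results was not tested.

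Immunoglobulin genes took 0.113, 0.0690 and 0.169% of all counts in the young libraries and 3.05, 41.0 and 0.115% in the Selp-low libraries. The Selp-low value of replicate 3, with a 95% Wilson interval of 0.114 to 0.116%, lay within the young range, and those of replicates 1 and 2 above it. Intervals cover counting error only. The difference of the means was 14.6 percentage points, two-sided exact permutation p = 0.2, where 3 against 3 libraries allow no p below 0.1, and it was 1.47 points without Selp-low replicate 2 and 21.9 points without Selp-low replicate 3. Of 147 tested IG genes, 132 were above all young libraries in Selp-low replicate 1, 137 in replicate 2 and 26 in replicate 3. Their median log2 fold change was 6.99, and 24 (16.3%) were higher in all 3 Selp-low libraries, beside 9.59% of all genes.

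Igkc, the kappa constant gene, was at 168, 76.2 and 336 CPM in young and at 12027, 188048 and 395 CPM in Selp-low libraries. It was higher in all 3 Selp-low libraries, narrowly so in replicate 3, with a log2 fold change of 8.52 ± 2.31 (DESeq2 adjusted p = 5.331e-07). Ighm, the mu heavy chain, was at 3939, 162687 and 461 CPM in Selp-low libraries against 305 to 785 CPM in yHSCs, so that replicate 3 fell inside the young range. Igha, the alpha chain of mucosal antibody, was at 276, 61658 and 17.2 CPM in Selp-low libraries and at most 5.45 CPM in yHSCs. Among heavy-chain constant counts, Ighm took 69.4% and Igha 26.3% in Selp-low replicate 2, while Ighd, the delta chain of naive B cells, took 21.0% in replicate 1. In replicate 3, Ighg1 took 11.3% and Ighg2b 7.93%.

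Variable gene use also differed between the Selp-low libraries. In replicate 2 Ighv10-3 took 60.7% of heavy-chain variable counts and Igkv8-27 took 55.6% of kappa variable counts, and in replicate 1 Igkv12-89 took 63.6% of kappa variable counts while the top heavy-chain gene, Ighv1-26, took 6.21%. In replicate 1, 17 heavy-chain variable genes were needed to reach 50% of the heavy-chain variable counts, against 1 in replicate 2 and 2 in replicate 3. Near-identical variable genes share reads, so their split is uncertain. Of 22 tested TR genes, 18 had a positive log2 fold change, beside 55.1% of all genes. In 0 of them were all 3 Selp-low libraries above or below all young ones, beside 9.59% and 6.74% of all genes. DESeq2 called 4 higher, beside 2.79% of all genes. Trbc2, a beta constant gene, was at 87.9, 181 and 0.112 CPM in Selp-low libraries against 0.575 to 2.06 CPM in yHSCs.

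**Figure D3:**
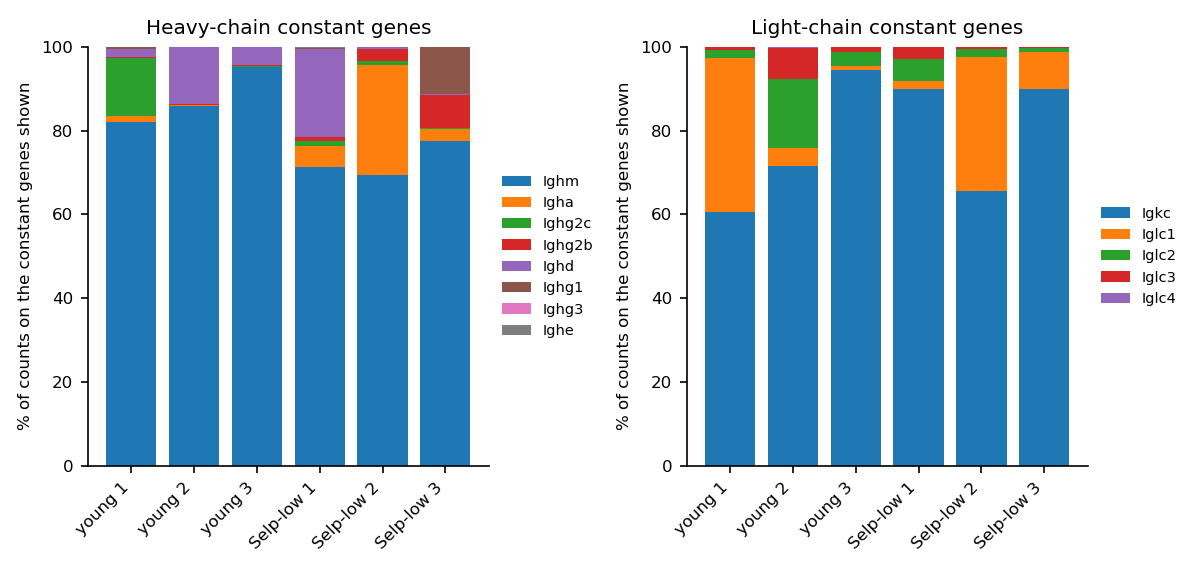
Share of the counts on heavy-chain (left) and light-chain (right) constant genes that each gene took, in the 3 young and 3 Selp-low libraries. Bars add to 100% and do not show the amount of IG counts, which was 0.0690 to 0.169% of the library in yHSCs and up to 41.0% in Selp-low replicate 2. Igha took 26.3% of the heavy-chain constant counts in Selp-low replicate 2 and Ighd 21.0% in replicate 1.

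Neutrophil genes separated the Selp-low libraries the other way. The 28 tested members summed to 92632, 18609 and 27192 CPM in the young libraries and to 7593, 1222 and 280705 CPM in the Selp-low libraries, so that replicates 1 and 2 were below and replicate 3 above all young libraries. Elane, neutrophil elastase, was at 75.2, 107 and 7924 CPM in Selp-low libraries. The list median of 0.78 became -3.21 without Selp-low replicate 3, with 19 members then called lower by DESeq2, beside 651 of 22116 genes in all. The 36 S phase and mitosis genes followed the same library: all 36 were above the young range in Selp-low replicate 3, and the list median went from 0.30 to -0.79 without it. For example, Ube2c was at 49.3, 130 and 372 CPM in Selp-low libraries and 141, 39.0 and 44.2 CPM in yHSCs.

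Platelet and megakaryocyte genes were higher in Selp-low replicates 2 and 3, where the list summed to 3745 and 5970 CPM against 2173 to 3201 CPM in yHSCs. In replicates 2 and 3, 22 and 25 members were above every young library and 7 and 2 below. Replicate 1 summed to 2226 CPM, within the young range, with 10 members above every young library and 10 below. Pf4, platelet factor 4, was at 23.5, 19.9 and 25.4 CPM in young and at 36.6, 1143 and 1438 CPM in Selp-low libraries. The lowest Selp-low library was above the highest young one, and the log2 fold change was 5.28 ± 1.21 (DESeq2 adjusted p = 1.737e-05). Treml1, a receptor of platelet granules, followed it at 5.80, 47.4 and 61.2 CPM against 3.50 to 5.50 CPM in yHSCs. Of 37 members, 26 were positive, the median was 0.84, and DESeq2 called 8 higher, beside 2.79% of all genes. That count was 3 without Selp-low replicate 2, young replicate 2 or young replicate 3, 5 without Selp-low replicate 3 and 12 without Selp-low replicate 1. Itga2b overlapped between groups, with 47.7, 253 and 410 CPM in Selp-low libraries and 49.4 to 103 CPM in yHSCs.

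Interferon-stimulated genes, which are transcribed when cells sense type I or type II interferon through STAT and IRF factors, were mostly lower in Selp-low paHSCs. Of 35 tested members, 28 had a negative log2 fold change, the median was -0.55, and 10 were lower in every Selp-low library than in every young one, beside 6.74% of all genes. Selp-low replicate 1 followed this least, with 13 members below every young library and 10 above. Its list sum was 3015 CPM against 2412 to 3006 CPM in yHSCs. In replicates 2 and 3, 20 and 27 members were below every young library and 7 and 1 above. DESeq2 called 3 lower, beside 1.59% of all genes. That count was 11 without Selp-low replicate 1, 6 without young replicate 1, 2 without Selp-low replicate 2 or 3 and 1 without young replicate 2 or 3. Oas2, which makes the 2-5A activator of RNase L, was at 9.92, 26.3 and 32.3 CPM in young and 4.23, 3.62 and 4.35 CPM in Selp-low libraries, a log2 fold change of -2.42 ± 0.45 (DESeq2 adjusted p = 0.0001014). Mx2 and Oasl2 were also called lower (log2 fold changes -2.02 ± 0.56 and -1.65 ± 0.51).

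The promoters of such genes hold interferon-stimulated response elements (ISRE), and those of 4 members that were lower in every Selp-low library are shown to place that element. The core GAAANNGAAA, searched on both strands in 250 bases before to 50 after each RefSeq start (GRCm38.p6), was in 16 of 25 genes of the list with a promoter entry and in 3.99% of 27025 genes in all. It was in 5 of the 8 genes that were lower without overlap and had an entry, and in 11 of the other 17. Capitals mark the core, and each line is the strand of the gene, for Rsad2 (viperin) at chr12:26456523-26456612, Ifit1 at chr19:34640745-34640853, Ifit3 at chr19:34583333-34583456 and Gbp7, a guanylate-binding protein, at chr3:142530243-142530332.
Rsad2: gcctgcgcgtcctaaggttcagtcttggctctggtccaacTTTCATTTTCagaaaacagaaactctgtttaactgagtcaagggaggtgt
Ifit1: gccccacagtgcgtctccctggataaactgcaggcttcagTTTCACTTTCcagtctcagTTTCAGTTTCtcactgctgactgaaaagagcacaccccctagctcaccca
Ifit3: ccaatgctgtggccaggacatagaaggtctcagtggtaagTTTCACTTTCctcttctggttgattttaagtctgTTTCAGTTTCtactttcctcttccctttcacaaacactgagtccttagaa
Gbp7: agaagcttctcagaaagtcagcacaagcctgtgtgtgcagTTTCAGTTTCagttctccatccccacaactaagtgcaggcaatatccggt
A match describes letters and is not a bound site. Rsad2 was at 30.9, 49.3 and 37.7 CPM in young and 25.4, 7.18 and 11.7 CPM in Selp-low libraries. Ifit1 was at 33.0, 46.4 and 43.1 CPM in young and 29.0, 19.0 and 6.89 CPM in Selp-low libraries. Neither passed DESeq2's threshold, and in both the Selp-low replicate 1 value was the closest to the young libraries. Gbp7 (log2 fold change -0.74 ± 0.30) and Ifit3 (-0.98 ± 0.74) were lower by less.

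Of 34 inflammatory and NF-kB genes, 3 were higher and 3 lower in every Selp-low library, shares close to those of all genes (9.59% and 6.74%), and the median was -0.45. The chemokine genes Ccl3 and Ccl4 and the interleukin-1 receptor gene Il1r1 were called lower by DESeq2 and 0 members higher, beside 1.59% and 2.79% of all genes. Ccl3 was at 63.1, 66.4 and 90.7 CPM in young and 18.3, 6.06 and 2.55 CPM in Selp-low libraries (log2 fold change -2.96 ± 0.71). Il1r1 was at 20.2, 23.6 and 42.4 CPM in young and at most 6.33 CPM in Selp-low libraries. The 3 lower calls were 1 without young replicate 3, 2 without young replicate 2 or Selp-low replicate 2, and 6 without Selp-low replicate 3. Nfkbia, Pycard and Cxcl5 were higher in all 3 Selp-low libraries, of which Nfkbia, the NF-kB inhibitor gene, was at 714, 976 and 1094 CPM against 408 to 664 CPM in yHSCs. Rgs1, a brake on G-protein signalling, was at 539, 209 and 452 CPM in Selp-low and 961 to 1672 CPM in young libraries. Monocyte, macrophage and dendritic cell genes went both ways. Of 22 members, 10 had a positive log2 fold change, the median was -0.27, and 7 were below every young library, beside 6.74% of all genes. DESeq2 called Csf1r, the receptor of macrophage colony-stimulating factor, and Cd5l lower (-2.67 ± 0.65 and -2.05 ± 0.69) and Ly86 higher (3.83 ± 1.12). Of the 22, 2 were thus called lower and 1 higher, beside 1.59% and 2.79% of all genes. These lower calls were 0 without young replicate 2 or 3, 1 without Selp-low replicate 2, 6 without young replicate 1, 5 without Selp-low replicate 1 and 4 when Selp-low replicate 3 was left out. The complement genes C1qa, C1qb and C1qc were below every young library but were not called (-1.82 ± 0.68, -1.80 ± 0.64 and -1.76 ± 0.76). In Selp-low replicates 2 and 3 the list summed to 999 and 2393 CPM, above all young libraries, at 518 to 751 CPM. In replicate 1 it summed to 732 CPM, within their range.

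Nuclear-encoded respiratory genes and ribosomal protein genes were higher in Selp-low paHSCs as groups. Of 37 complex I subunit genes, 36 had a positive log2 fold change and 35 were higher in every Selp-low library, with a median of 1.12, and of 37 genes of complexes II to V, 32 were higher in every Selp-low library, with a median of 1.23. Of 77 cytosolic ribosomal protein genes 67 were higher in every Selp-low library, with a median of 0.86. Of all genes tested, 9.59% were higher in every Selp-low library. DESeq2 called 17 of the complex I genes, 22 of the complex II to V genes and 20 of the ribosomal protein genes higher, beside 2.79% of all genes. Without Selp-low replicate 2, young replicate 2 or young replicate 3 in turn it called 0 complex I and 0 complex II to V genes. Of the ribosomal protein genes it then called 2, 0 and 1. Without young replicate 1 it called 30 of the 37 complex I genes higher, beside 2018 of 21537 genes in all. The medians stayed positive in edgeR without each library in turn, from 0.97 to 1.37 for complex I, from 1.05 to 1.35 for complexes II to V and from 0.72 to 0.93 for ribosomal proteins.

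Ndufa1, a complex I subunit, was at 94.1, 44.9 and 52.5 CPM in young and 168, 373 and 248 CPM in Selp-low libraries, a log2 fold change of 2.08 ± 0.45 (DESeq2 adjusted p = 0.002902). Rps25, a small-subunit ribosomal protein, was at 230, 204 and 221 CPM in young and 469, 653 and 460 CPM in Selp-low libraries, a log2 fold change of 1.32 ± 0.27 (DESeq2 adjusted p = 0.0007774). In both genes every Selp-low library exceeded every young one. Exceptions were Ndufs1, Sdha, Rpl7a and Rps10, which overlapped between the groups with log2 fold changes of -0.20 ± 0.23, -0.08 ± 0.24, -0.11 ± 0.52 and -0.34 ± 0.56, and of which Sdha and Rpl7a changed sign without single libraries. The 12 tested genes of mitochondrial DNA had a median log2 fold change of 0.11, and 1 of them, mt-Nd3, was higher in every Selp-low library.

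Short genes were also more often higher. Of protein-coding genes in the shortest length decile of the file (204 to 1746 bases), 32.3% were higher in every Selp-low library, against 4.07% in the longest decile. Ribosomal protein genes had a median length of 1781 bases and respiratory genes 1737 bases, against 4416 bases for all tested protein-coding genes. In the longer 50% of protein-coding genes, 3 of 4 ribosomal and 5 of 7 respiratory genes were higher in every Selp-low library, against 4.71% of all genes there. In the shortest decile 35 of 37 ribosomal and 36 of 37 respiratory genes were. The part of gene length in this result was not tested. Processed pseudogenes, whose short copies share reads with their parent genes, were higher in every Selp-low library in 242 of 1304 cases (18.6%), of which 43 were named as copies of ribosomal protein genes.

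**Figure D4:**
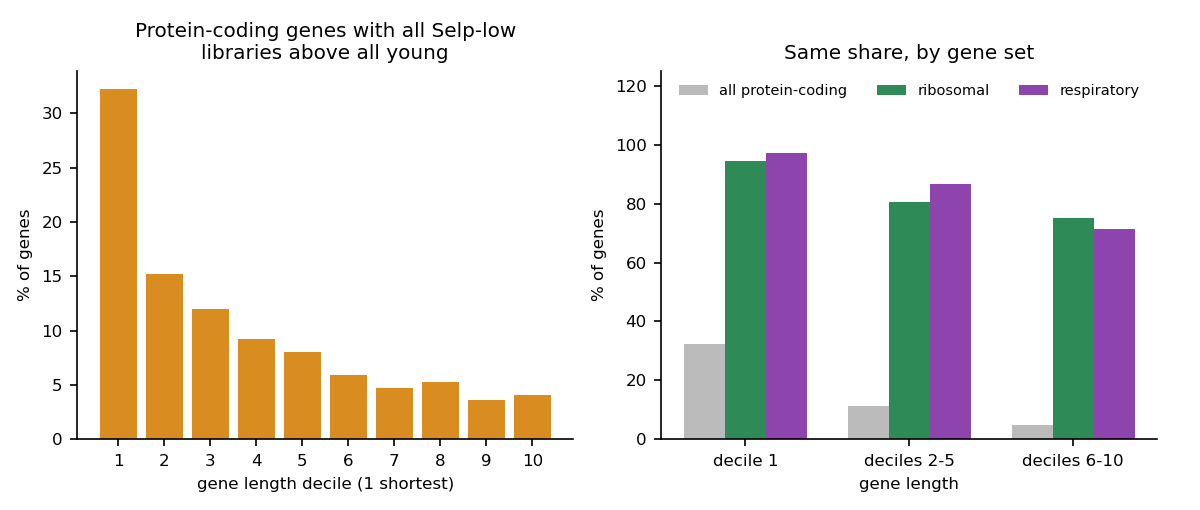
Left, the percent of tested protein-coding genes with all Selp-low libraries above all young ones, by length decile of the gene. Right, the same percent for all protein-coding genes, ribosomal protein genes and respiratory complex genes, in decile 1, deciles 2 to 5 and deciles 6 to 10. The share falls from 32.3% to 4.07% with length, and the gene sets lie above all protein-coding genes in each length range, from few genes in the longest range.

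The promoter of Ndufa11, a complex I subunit gene, is shown because it holds the core of nuclear respiratory factor 1 (NRF1), a regulator of respiratory genes. The core GCGCNTGCGC, on both strands, was in 17 of 62 respiratory genes with a promoter entry and in 5.19% of 27025 genes in all. At chr17:56717662-56717751 (GRCm38.p6, plus strand) the core, in capitals, lay 60 bases before the RefSeq start.
Ndufa11: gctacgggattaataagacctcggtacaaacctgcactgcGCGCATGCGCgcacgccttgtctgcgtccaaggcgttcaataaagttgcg
Ndufa11 was at 33.3, 17.4 and 18.8 CPM in young and 64.9, 87.1 and 62.7 CPM in Selp-low libraries, a log2 fold change of 1.66 ± 0.36 (DESeq2 adjusted p = 0.006395).

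Among antioxidant genes 10 of 36 were higher and 5 lower in every Selp-low library, beside 9.59% and 6.74% of all genes. The list median was 0.37 with 23 members positive, and without Selp-low replicate 3 it was -0.32 with 14 positive. Prdx1, a peroxiredoxin, was at 381, 332 and 373 CPM in young and 704, 835 and 658 CPM in Selp-low libraries, and Gpx4, the lipid hydroperoxidase, at 160, 127 and 139 against 270, 360 and 399 CPM. Both were called higher by DESeq2 (log2 fold changes 1.06 ± 0.26 and 1.31 ± 0.26), while Hmox1, heme oxygenase, was called lower (-2.06 ± 0.52). Of the 36 genes, 2 were thus called higher and 1 lower, beside 2.79% and 1.59% of all genes. Without young replicate 2 or 3 DESeq2 called 0 members of this list, and without Selp-low replicate 2 it called 0 higher. The higher calls were 6 without young replicate 1 and 3 without Selp-low replicate 1 or 3, and the lower calls were 5 without Selp-low replicate 3 and 2 without young replicate 1 or Selp-low replicate 1. DNA repair and p53 genes had a median of -0.08, with Bax and the stress gene Gadd45g higher (1.00 ± 0.26 and 1.95 ± 0.36) and Trp53bp1 lower (-1.03 ± 0.27). MHC class I genes were higher in 15 of 19 cases with a median of 0.85, which was 0.32 without Selp-low replicate 2. DESeq2 called 1 of them higher, beside 2.79% of all genes. It called 7 of them higher without Selp-low replicate 3, beside 999 of 22116 genes in all. The chaperone gene Hspe1 was called higher by DESeq2 (1.29 ± 0.30), 1 of 29 tested chaperone genes, beside 2.79% of all genes. No chaperone gene was called without young replicate 2, young replicate 3 or Selp-low replicate 2. Of 33 cytokine and chemokine receptor genes, 1 was higher and 5 were lower in every Selp-low library, beside 9.59% and 6.74% of all genes. The median was -0.17, and DESeq2 called 5 higher and 4 lower, beside 2.79% and 1.59% of all genes. The 1 higher gene was Cxcr4 (1.77 ± 0.57), and the lower genes included Kit, Csf1r, Il1r1 and Flt3. The 5 higher calls were 0 without Selp-low replicate 2, 2 without young replicate 2, 3 when any of the other libraries but Selp-low replicate 3 was left out, and 8 without that library, where lower calls were 9. Lower calls were 2 without young replicate 2 or 3.

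Erythroid, CDK inhibitor and D cyclin, and JAK-STAT and PI3K-Akt core genes had list medians of -0.06, 0.04 and -0.41, with 0 genes called by DESeq2 in each. Without young replicate 1 the erythroid median was 0.88, with 19 of 20 members positive and 5 called higher, and the JAK-STAT and PI3K-Akt median was -0.72, with 4 called lower. The erythroid median was also positive, at 0.26, without Selp-low replicate 2. Immediate early and AP-1 genes had a median of -0.21. DESeq2 called 2 of 31, Dusp5 and Rgs1, lower, beside 1.59% of all genes. That count was 0 without young replicate 2 or 3, 1 without Selp-low replicate 2, 5 without young replicate 1 and 4 without Selp-low replicate 1 or 3. Endothelial and stromal genes had a median of -0.77 and basophil and mast cell genes one of 1.58, and no member of either list was called with all 6 libraries. Without young replicate 1 the basophil and mast cell median was 2.71, with 3 members called higher, and without Selp-low replicate 1 DESeq2 called 4 endothelial and stromal genes lower.

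**Figure D5:**
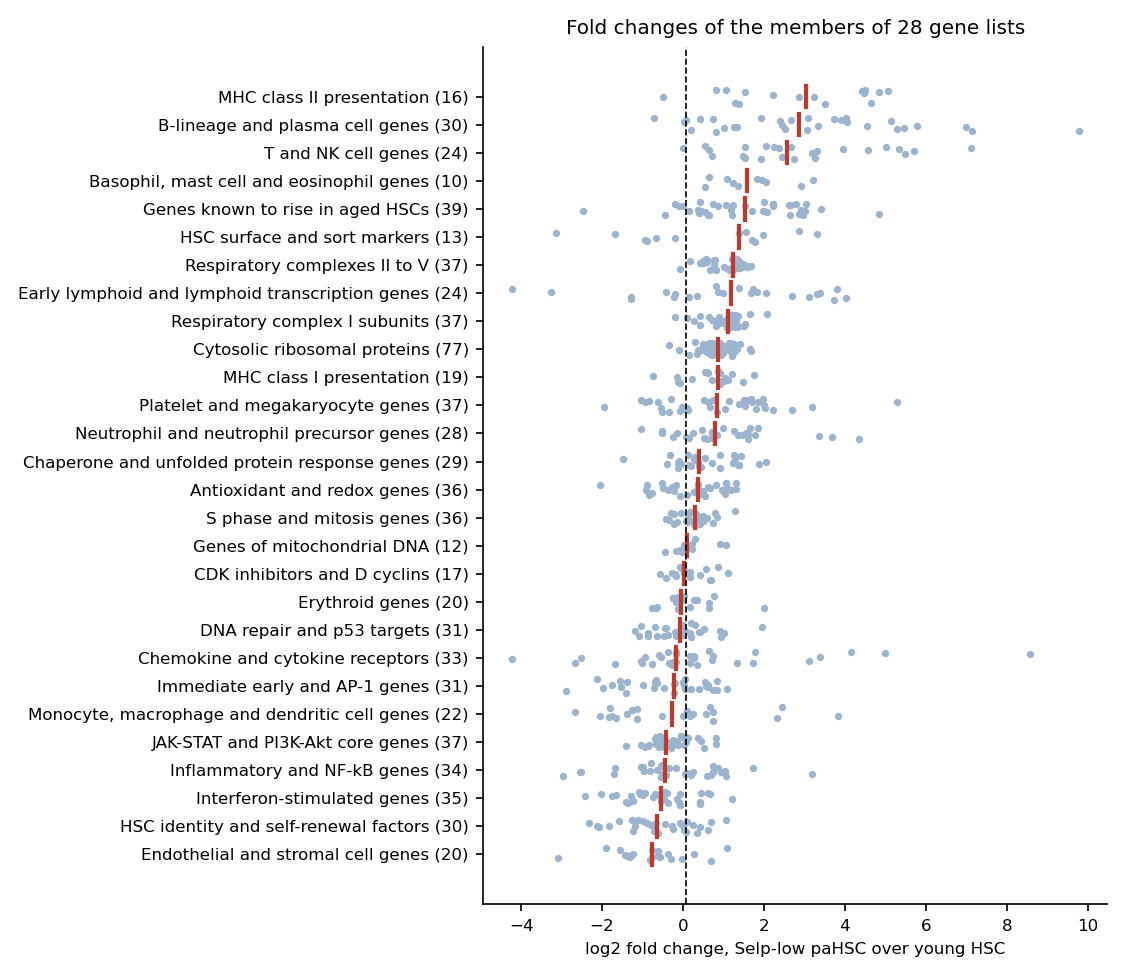
Log2 fold change of Selp-low paHSCs over yHSCs for the tested members of 28 gene lists (points), with the list median (red bar) and the median of all tested genes (dashed line). Numbers in brackets are tested members. Medians range from -0.77 for endothelial and stromal genes to 3.05 for MHC class II genes.

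Ranked by fold change over all protein-coding genes, the largest differences with no overlap between groups came mostly from genes with low levels in one group. Csn3, the kappa-casein gene, was at 0 counts in all 3 young libraries, and at 7.41, 38.9 and 1.12 CPM in Selp-low libraries. Since 0 counts allow up to 3 counts, or at most 0.102 CPM in a young library, the Selp-low mean was at least 156-fold higher. Gpr183, a receptor for oxysterols that guides B cells and a member of the list of genes known to rise in aged HSCs, was at 313, 120 and 11.4 CPM in Selp-low and 2.13 to 7.74 CPM in young libraries. Eaf2 was at 6.49, 107 and 2.17 CPM against 1.08 to 1.28 CPM, so that most of its difference lay in replicate 2. Zg16, a lectin-like secretory protein gene, was at 14.4, 16.1 and 14.9 CPM against 0.649 to 2.61 CPM, with a narrow spread in the Selp-low group (log2 fold change 3.37 ± 0.59, DESeq2 adjusted p = 1.737e-05). Ly6k, Pdzph1, H2-Q1 and Sbspon were also higher, with log2 fold changes of 3.41 to 6.33. Ly6k was at 2.65, 30.7 and 0.599 CPM in Selp-low libraries, against at most 0.355 CPM in yHSCs. Pdzph1 was at 0.590, 12.5 and 3.22 CPM and H2-Q1 at 6.29, 40.6 and 7.16 CPM in Selp-low libraries. Replicate 2 was thus the highest for these genes, while Sbspon was highest in replicate 1, at 15.4 CPM. Reads of paralogs such as H2-Q1, the Oas and the Ifit genes can be split between copies, so their values are less certain.

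Of the genes that were lower, Slc16a11, a monocarboxylate transporter family gene, was at 5.28, 18.2 and 30.7 CPM in young and at 0.655, 0 and 0.150 CPM in Selp-low libraries (log2 fold change -5.87 ± 1.20, DESeq2 adjusted p = 3.769e-06). Hnf4a, a nuclear receptor, was at 10.3, 27.8 and 58.0 CPM in young and 3.01, 0.922 and 0.412 CPM in Selp-low libraries. Mmp2, Itgb5, Emp1, Sstr2, Ddx4, Bpifc and Cds1 followed, with log2 fold changes between -3.17 and -3.84. Among lncRNAs, Gm10419 was at 3.49, 1.39 and 2.19 CPM in young and between 11.4 and 36.4 CPM in Selp-low libraries, and Gm26740 at 5.11, 5.17 and 5.69 against 52.9, 54.0 and 11.8 CPM. Gm32554 was lower (-3.64 ± 1.22).

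Leaving out Selp-low replicate 3 was the 1 leave-out under which edgeR called genes: 110 of 22116 higher (0.497%) and 8 lower (0.0362%). Of the higher calls, 70 were protein-coding, 24 were IG and 2 were TR genes. Of the 118 genes, 17 were B-lineage, T and NK or MHC class II list members and 2 were genes known to rise in aged HSCs. Of 111 that were also tested in all 6 libraries, replicate 3 lay above every young library for 27 of the higher calls and below every young library for 0 of the lower calls. For each of the 8 lower calls replicate 3 lay above every young library. Crispld2, for example, was at 47.0 CPM in replicate 3 against 21.5 to 31.3 CPM in yHSCs. Protein-coding examples were Cxcr6 and Izumo1r, both higher (log2 fold changes 9.04 ± 1.13 and 8.45 ± 1.12, edgeR adjusted p = 0.0428803 and 0.0499206) and Crispld2 lower (-4.84 ± 0.62, edgeR adjusted p = 0.0472112).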

How the data were processed

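Total RNA of sorted HSCs was reverse transcribed with a low-input SMARTer kit and made into libraries with TruePrep. The counts are those the authors deposited: whole reads per gene from featureCounts 2.0.6 after HISAT2 2.2.1 alignment to mm39, per the submitters' processing notes. The sources used here name no annotation release, strand setting or treatment of multi-mapped reads. Gene lists and members were chosen with earlier results of these data known. The study states 3 biological replicates per group.

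Genes were filtered with filterByExpr and tested in edgeR 4.0.16 (R 4.3.3; TMM factors; quasi-likelihood; Benjamini-Hochberg) on the 6 libraries. SE is the log2 fold change divided by the square root of F. Levels use TMM factors of all 9 libraries, so they can differ slightly from the fold changes. Alternatives were DESeq2 1.42.0, limma 3.58.1 (voom), RLE and upper-quartile factors, other filters, 1 fit of all 9 libraries, IG and TR genes removed, a replicate block and each library left out; DESeq2 unfiltered and DESeq2 leave-outs were chosen after seeing the data. The models were tested on simulated counts. Named genes were the study's marker genes, list members with the largest changes, IG constant and top variable genes, and 12 protein-coding genes each way that did not overlap, passed DESeq2 and reached a mean of 5 CPM; some genes the rule selects are not reported here. Further list members were named after their values were seen. Figures were drawn with matplotlib 3.10.9. Promoters are from RefSeq (GRCm38.p6); gene coordinates are the file's own (mm39), and the 2 builds were not mixed.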

Additional observations from a re-analysis of the deposited data

How the results depend on the processing

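The 0 edgeR calls held under RLE factors, upper-quartile factors, a mean of at least 10 counts, the newer quasi-likelihood fit, 1 fit of all 9 libraries, removal of IG and TR genes and no fold-change minimum. Counts of calls over all genes, protein-coding genes, and IG and TR genes were 365, 185 and 149 with edgeR without the filter on low counts, 896, 722 and 68 with DESeq2, 431, 402 and 1 with limma voom, and 516, 344 and 97 with DESeq2 without the filter. Of 53 named genes, these 4 settings called 33, 42, 14 and 40. Over the 6 leave-outs, edgeR called 0 to 118 genes, 0 to 78 protein-coding genes, 0 to 26 IG and TR genes and 0 to 6 named genes, with calls only without Selp-low replicate 3. DESeq2 called 3005, 2149 and 118 without young replicate 1, 237, 140 and 61 without young replicate 2, 169, 95 and 54 without young replicate 3, 1072, 869 and 80 without Selp-low replicate 1, 187, 139 and 33 without Selp-low replicate 2, and 1650, 1295 and 196 without Selp-low replicate 3. DESeq2 without the filter and its leave-outs were chosen after seeing the data. The cause of these shifts was not tested.

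Single genes changed sign in few settings. Under limma voom, Alox12 was at -0.014, Ngp at -2.69, S100a8 at -2.09 and S100a9 at -2.50 in log2 fold change. Over the same leave-outs the log2 fold change ran from -0.20 to 0.98 for Alox12, -1.18 to 4.40 for Elane, -3.77 to 2.04 for Ngp, -3.04 to 2.84 for S100a8, -3.26 to 2.49 for S100a9, -2.20 to 0.44 for Tubb1, -0.22 to 0.036 for Sdha and -0.87 to 0.14 for Rpl7a. Rpl7a was at 0.11 without young replicate 2, 0.02 without young replicate 3, 0.14 without Selp-low replicate 1 and 0.11 without Selp-low replicate 2. The difference in IG share, 14.6 points, was 1.47 to 21.9 points over the leave-outs, 10.1 with constant genes only, 16.4 with TR genes and Jchain and 14.8 over protein-coding, IG and TR counts. The neutrophil list median was -3.21 without Selp-low replicate 3.

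The labels do not say whether replicate numbers pair the samples. Same-numbered libraries correlated at 0.0874, 0.0185 and 0.0678 in their deviations from the group means, and the other pairs at -0.0684 to 0.0255. Each Selp-low library correlated best with its same-numbered young library, while young replicate 2 correlated best with Selp-low replicate 3. Values this low do not settle the pairing, and the fit without a block is the main one. With the replicate block, edgeR called 0 genes, Ngp was at -3.11, S100a8 at -2.25 and S100a9 at -2.47, and the neutrophil list median was -1.84.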
